A study of Mus musculus with 2 samples.

Results

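Transcripts of 33 cell cycle genes, 17 of mitosis and 16 of DNA synthesis, were followed across the cell classes of the mouse retina in 2 droplet libraries. The genes were taken by symbol, and all 33 were found among the 31053 genes of the count files. The cells were sorted with magnetic beads against CD11b, an integrin that myeloid cells carry on their surface. Both groups were wild-type C57BL/6 mice killed at postnatal day 17, and the retinas of 6 mice were pooled for each. The labels call the control mice control and say no more of them. OIR stands for oxygen-induced retinopathy, a model in which pups and their nursing mother breathe 75% oxygen from day 7 to day 12 before they return to room air. Each group is 1 library of pooled animals, so no difference below has a replicate check and no p-value is given.

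A cell that divides first copies its DNA and then separates the copies. The MCM helicase is loaded on replication origins before the DNA synthesis phase. In that phase it unwinds the strands, PCNA clamps the polymerases to the template, and enzymes such as ribonucleotide reductase and thymidine kinase supply nucleotides. In mitosis the kinase CDK1 with its B-type cyclins drives entry, Aurora and Polo-like kinases build the spindle, motor proteins move the chromosomes, and the anaphase-promoting complex marks the cyclins for destruction. Microglia, the resident macrophages of the retina, renew themselves by division. Border macrophages lie along vessels and membranes, monocytes arrive from the blood, Müller glia are the radial glia of the retina, and its mature neurons have left the cycle.

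The control library held 10826 barcodes and the OIR library 7283, with 50081145 and 49773742 UMIs (unique molecular identifiers, which count RNA molecules). The cells kept numbered 8585 in control, at a median depth of 1648 UMIs, and 6132 in OIR, at 2828.5 UMIs. Cells were clustered without any gene of the cycle lists and named from marker genes, so the class names below mean "like" that type. Although the labels give retinal microglia as the cell type, rods were the most frequent class, with 6687 control and 3566 OIR cells. Microglia numbered 835 and 616, border macrophages 22 and 99, monocytes 12 and 33, Müller glia 255 and 79, cones 379 and 790, and bipolar cells 267 and 476. All 12 microglia markers were detected in the microglia of both libraries, at a lower level in OIR. A cluster led by the astrocyte marker Gfap (9 control and 323 OIR cells) scored 2.71 for Müller glia and 2.24 for astrocyte markers. Its 10 leading genes held Gfap but no Müller marker, so astrocyte markers led there, and it has no name and is given apart. The microglia clusters led by Cst7 and Mmp12, with 279 and 268 OIR cells, and a Müller cluster led by Pdyn also had 0 of their own markers among these 10. They kept their names because no other marker list led there. The libraries shared 89 barcodes, 30 of them among the cells kept.

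In microglia, transcripts of both gene groups were higher in the OIR library, and those of mitosis by far more. The 17 mitosis genes together held 344 UMIs in control and 3145 in OIR, which is 51.8 CPM (UMIs per 1000000 UMIs of the class; interval 46.5 to 57.6) and 518 CPM (500 to 536). That is a log2 ratio, OIR over control, of 3.32 (3.16 to 3.48). The 16 DNA synthesis genes held 994 and 2125 UMIs, or 150 and 350 CPM, with a log2 ratio of 1.22 (1.11 to 1.33). Every bracketed range here and below is an exact 95% interval for counting error alone. It treats UMIs as independent and does not cover UMIs that gather in few cells. Of the 17 mitosis genes, all had at least 20 UMIs in both libraries together, and all 17 were at least 2-fold higher in OIR, where 8.32% of all 11308 such genes were. Of the 16 DNA synthesis genes 15 had that many UMIs, and 11 of them were at least 2-fold higher. No gene of either group was 2-fold lower, against 6.16% of all genes. The median log2 ratio was 3.62 for mitosis genes and 1.70 for DNA synthesis genes, beside -0.09 for all genes.

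**Figure D1:**
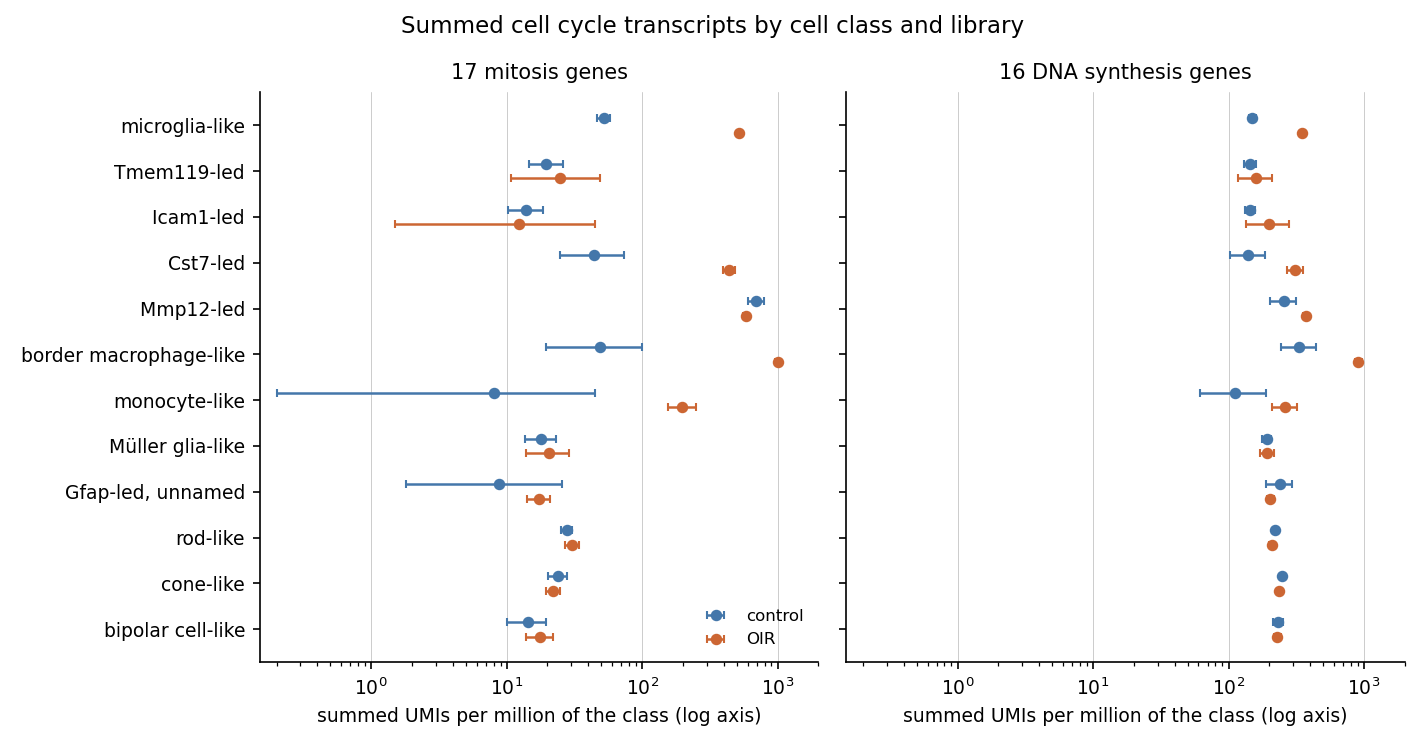
Summed CPM of the class (log axis) for the 17 mitosis genes (left) and the 16 DNA synthesis genes (right), by cell class and for 4 microglia clusters, in the control (blue) and OIR (orange) libraries. Points are 1 library each and bars are 95% Poisson intervals. OIR lies to the right of control in microglia, border macrophages and monocytes, and the libraries lie close together in Müller glia and neurons.

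The kinases and cyclins that start mitosis differed by different amounts. Cdk1, the kinase itself (ENSMUSG00000019942, chromosome 10, 69335146 to 69352938, build mm10), held 92 UMIs in control microglia and 310 in OIR, or 13.9 and 51.0 CPM. Its log2 ratio of 1.88 (1.54 to 2.23) was the smallest of the mitosis genes. It was also the mitosis gene that control cells carried most often, in 64 of 835 cells. Of its cyclin partners, Ccnb1 had 19 and 85 UMIs, a log2 ratio of 2.29 (1.56 to 3.09), and Ccnb2 had 12 and 139, a log2 ratio of 3.66 (2.81 to 4.65). Plk1, the Polo-like kinase that matures the spindle poles, had 9 and 40 UMIs (2.28, 1.21 to 3.51). Aurka, the spindle pole Aurora kinase, had 5 and 73 UMIs (4.0, 2.71 to 5.66). Aurkb, the Aurora kinase of the chromosomes, had 14 and 89 (2.80, 1.97 to 3.72). No interval of these genes reached 0.

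The next genes act on chromosome structure and at the end of mitosis. Ube2c, the ubiquitin-conjugating enzyme of the anaphase-promoting complex (ENSMUSG00000001403, chromosome 2, 164769898 to 164778822), had 31 UMIs in control and 414 in OIR, or 4.67 and 68.1 CPM. Its log2 ratio was 3.87 (3.34 to 4.44). Birc5, or survivin, a partner of Aurora B, had 32 and 373 UMIs, 4.82 and 61.4 CPM and a ratio of 3.67 (3.15 to 4.24). Top2a (ENSMUSG00000020914, chromosome 11, 98992943 to 99024189), the topoisomerase that untangles copied DNA, had 33 and 369 UMIs, 4.97 and 60.7 CPM and a ratio of 3.61 (3.10 to 4.17). Mki67 (ENSMUSG00000031004, chromosome 7, 135689784 to 135716361), the proliferation marker that coats mitotic chromosomes, had 11 and 302 UMIs, or 1.66 and 49.7 CPM. Its log2 ratio of 4.91 (4.05 to 5.92) was the largest point value of the 33 genes, although its interval overlapped those of several others, Rrm2 and Hmmr among them.

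Spindle and kinetochore genes followed the same direction. The kinetochore proteins Cenpf (23 and 237 UMIs) and Cenpe (20 and 139 UMIs) had log2 ratios of 3.49 (2.87 to 4.18) and 2.92 (2.24 to 3.68). Tpx2, which activates Aurora A on the spindle, had 6 and 114 UMIs and a ratio of 4.38 (3.21 to 5.85). The spindle-associated gene Hmmr had 6 and 116 UMIs and a ratio of 4.40 (3.23 to 5.88). Nusap1, a microtubule-binding protein, had 10 and 128 UMIs (3.81, 2.88 to 4.90). Prc1, which bundles the central spindle, had 13 and 146 (3.62, 2.80 to 4.56). Kif11, the motor that pushes the spindle poles apart, had 8 and 71 (3.28, 2.22 to 4.54).

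A single control cell carried most of the control signal. It held 181 of the 344 mitosis UMIs of control microglia within 17547 UMIs in all, and a second cell brought the sum of the cells with 10 or more to 218. For Hmmr this cell gave all 6 control UMIs, for Prc1 12 of 13, for Nusap1 9 of 10, for Mki67 9 of 11 and for Ube2c 21 of 31. It gave 16 of 92 UMIs of Cdk1, 1 of 14 of Aurkb and 1 of 8 of Kif11. In OIR the highest cell held 274 of 3145 mitosis UMIs. Without the highest cell of each library 163 and 2871 mitosis UMIs remained, and the log2 ratio of the sum moved from 3.32 to 4.27 (4.04 to 4.51). Mki67 then had 2 control UMIs and a ratio of 7.28, and Top2a had 11 and a ratio of 5.09. The control level of the mitosis genes in microglia therefore rested largely on 1 cell, and the fold was larger without the highest cell of each library. The OIR level did not rest on 1 cell, but 42 of 616 OIR cells held 2739 of the 3145 UMIs.

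**Figure D2:**
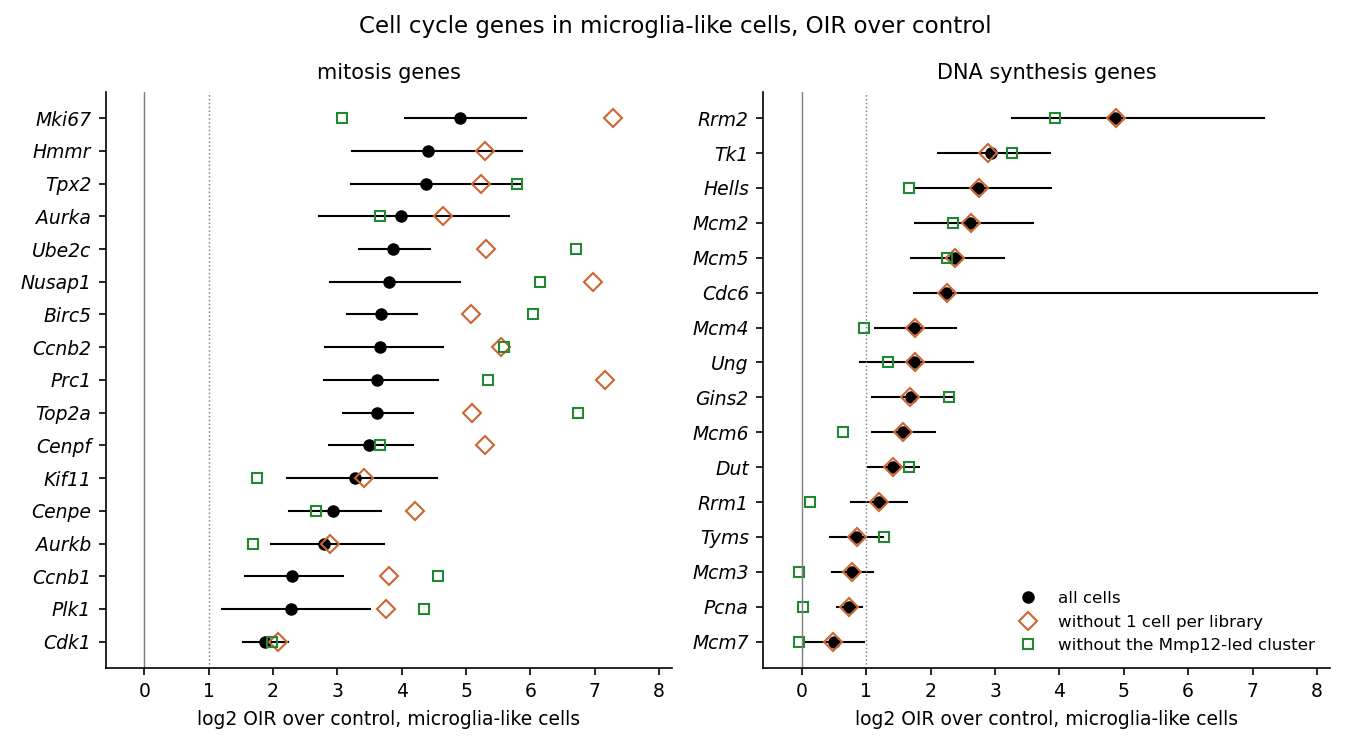
Log2 ratio of OIR over control in microglia for the mitosis genes (left) and DNA synthesis genes (right). Black points with 95% intervals use all cells, orange diamonds leave out the 1 cell of each library with the most mitosis UMIs, and green squares leave out the Mmp12-led cluster. A point with no control UMIs left (such as the diamond of Hmmr) is a lower bound set with 3 counts, the interval of Cdc6 has no upper end, and a missing square means that no ratio could be given. All black points lie above 0, and the dotted line marks 2-fold.

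Among DNA synthesis genes, those that load and drive the replication helicase were higher in OIR by unequal amounts. Of the 6 subunits of the MCM ring, Mcm2 had 13 and 73 UMIs (log2 ratio 2.62, 1.75 to 3.59) and Mcm5 had 21 and 100 (2.38, 1.69 to 3.13). Mcm4 had 30 and 92 (1.74, 1.14 to 2.39) and Mcm6 had 50 and 136 (1.57, 1.09 to 2.07). Mcm3, with 141 and 222 UMIs, stood at 0.78 (0.47 to 1.10), and Mcm7, with 72 and 93, at 0.50 (0.04 to 0.96). Subunits of 1 complex therefore spanned ratios whose intervals did not overlap between Mcm3 or Mcm7 and Mcm2 or Mcm5. Gins2, part of the active helicase, had 30 and 89 UMIs (1.70, 1.08 to 2.34). Cdc6, which loads the ring, had 0 and 13 UMIs, so its OIR level was at least 2.24 higher on the log2 scale against a floor of 3 counts. Pcna (ENSMUSG00000027342, chromosome 2, 132249162 to 132253314), the polymerase clamp, had 370 and 562 UMIs, or 55.7 and 92.5 CPM, and a ratio of 0.73 (0.54 to 0.92).

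Genes of nucleotide supply diverged more. Rrm2, the regulated subunit of ribonucleotide reductase (ENSMUSG00000020649, chromosome 12, 24708241 to 24714146), had 3 UMIs in control and 80 in OIR, a log2 ratio of 4.86 (3.27 to 7.17). Rrm1, the other subunit, had 67 and 140 (1.19, 0.76 to 1.63), and the intervals of the subunits did not overlap. These intervals cover counting error alone, and the 3 control UMIs of Rrm2 lay in 2 cells. Tk1, the thymidine kinase of dividing cells, had 14 and 98 UMIs (2.93, 2.12 to 3.86), while Tyms, the thymidylate synthase, had 82 and 134 (0.84, 0.43 to 1.25). Dut, which removes dUTP, had 75 and 183 (1.41, 1.02 to 1.82). The uracil glycosylase Ung had 16 and 49 (1.74, 0.90 to 2.66), and Hells, a chromatin helicase, had 10 and 61 (2.74, 1.76 to 3.87). The 4 genes under 2-fold were Pcna, Mcm3, Mcm7 and Tyms, each with at least 72 control UMIs. Several of these ratios rested on the cluster led by Mmp12, which held 28 control and 268 OIR cells. Without it Pcna had 345 and 69 UMIs and a ratio of 0.018 (-0.38 to 0.39), Mcm3 stood at -0.050 (-0.73 to 0.58), Mcm7 at -0.047 (-1.03 to 0.82) and Rrm1 at 0.12 (-0.92 to 1.03). Mcm4 and Mcm6 were then under 2-fold, at 0.96 (-0.26 to 2.06) and 0.63 (-0.31 to 1.49).

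Because the mitosis genes were higher together, their promoters are shown as the reference gives them. The RefSeq promoter table (build GRCm38.p6, 300 bases per start, of which 250 lie before it) held 15 of the 17 mitosis genes and 14 of the 16 DNA synthesis genes. It was searched on both strands for the CCAAT box (CCAAT), the cell cycle homology region known as CHR (TTTGAA or TTCGAA) and an E2F-like motif (TTTCCCGC, TTTCGCGC, TTTGCCGC or TTTGGCGC). The 250 bases before the start are printed 5′ to 3′ on the strand of the gene for 4 mitosis genes that hold a CCAAT box and a CHR and for 2 helicase genes with an E2F match. Capitals mark the matches, and no letters are shared by different motifs in these runs.
Mki67, chr7:135716380-135716629, minus strand: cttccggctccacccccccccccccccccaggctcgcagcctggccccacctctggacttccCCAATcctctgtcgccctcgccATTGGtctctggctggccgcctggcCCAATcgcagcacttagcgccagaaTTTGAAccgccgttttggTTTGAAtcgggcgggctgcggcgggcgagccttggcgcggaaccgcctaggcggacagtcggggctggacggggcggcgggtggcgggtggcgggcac
Cdk1, chr10:69352913-69353162, minus strand: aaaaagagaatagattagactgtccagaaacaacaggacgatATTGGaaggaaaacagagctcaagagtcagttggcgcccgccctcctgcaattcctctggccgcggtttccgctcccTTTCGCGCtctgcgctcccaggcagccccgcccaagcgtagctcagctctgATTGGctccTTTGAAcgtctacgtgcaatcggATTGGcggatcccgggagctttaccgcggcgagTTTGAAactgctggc
Ube2c, chr2:164769679-164769928, plus strand: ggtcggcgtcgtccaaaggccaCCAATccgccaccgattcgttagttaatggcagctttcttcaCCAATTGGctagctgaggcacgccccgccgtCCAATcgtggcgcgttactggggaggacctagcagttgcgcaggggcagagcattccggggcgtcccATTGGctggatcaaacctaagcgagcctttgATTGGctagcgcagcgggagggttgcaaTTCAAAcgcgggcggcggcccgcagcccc
Kif11, chr19:37376132-37376381, plus strand: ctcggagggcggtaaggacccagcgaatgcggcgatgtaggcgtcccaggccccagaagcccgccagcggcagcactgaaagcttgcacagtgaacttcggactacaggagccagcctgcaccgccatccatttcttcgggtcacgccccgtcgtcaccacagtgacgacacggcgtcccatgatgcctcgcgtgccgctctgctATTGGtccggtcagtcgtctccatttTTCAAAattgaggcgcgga
Mcm5, chr8:75109259-75109508, plus strand: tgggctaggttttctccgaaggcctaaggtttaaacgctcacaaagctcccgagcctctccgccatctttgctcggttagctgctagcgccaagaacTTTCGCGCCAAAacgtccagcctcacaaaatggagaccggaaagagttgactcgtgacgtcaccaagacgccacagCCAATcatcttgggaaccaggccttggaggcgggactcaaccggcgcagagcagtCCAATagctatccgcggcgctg
Mcm6, chr1:128359706-128359955, minus strand: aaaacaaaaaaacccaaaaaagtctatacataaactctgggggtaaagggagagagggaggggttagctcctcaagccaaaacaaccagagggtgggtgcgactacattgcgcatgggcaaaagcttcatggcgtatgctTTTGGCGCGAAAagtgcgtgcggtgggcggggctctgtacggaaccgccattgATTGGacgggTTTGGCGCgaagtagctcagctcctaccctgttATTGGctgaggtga
Matches of the same motif on opposite strands overlap in the E2F runs of Mcm5 and Mcm6 and in a CCAAT run of Ube2c. A gene was counted when any of its listed starts held the motif, and some genes, such as Prc1 and Mcm7, had more than 1 start. A CHR was found for 11 of 15 mitosis genes (73.3%) and 2 of 14 DNA synthesis genes (14.3%). It was found for 16.5% of the 8841 genes with a listed promoter and at least 20 UMIs in microglia. All 11 also held a CCAAT box, a pair found for 8.25% of those 8841 genes. The CCAAT box, read by itself, was found for 13 of 15 mitosis genes (86.7%) and 8 of 14 DNA synthesis genes (57.1%), beside 43.6%. An E2F match was found for 1 mitosis gene, Cdk1 (6.67%), and for 6 DNA synthesis genes (42.9%), beside 4.84%. Of the mitosis genes Birc5 and Nusap1 held none of the 3 motifs, and of the DNA synthesis genes Tyms, Tk1, Ung and Dut held none. These are letter matches in a fixed window and say nothing of binding.

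The mitosis transcripts were gathered in a small part of the OIR cells. After each cell was thinned to 1500 UMIs, 2 of 777 control microglia (0.257%, 0.0312 to 0.927) and 43 of 535 OIR microglia (8.04%, 5.88 to 10.7) held 3 or more mitosis UMIs. Shallower cells were left out, 58 in control and 81 in OIR. Without thinning the numbers were 6 of 835 (0.719%) and 97 of 616 (15.7%). In rods, taken as a background, the thinned shares were 2 of 2936 (0.0681%) and 1 of 1755 (0.0570%). The mitosis UMIs of rods were led by Cenpe and Plk1, and the part of stray RNA in them was not tested. The median depth of the class was 6609 UMIs in control and 5797 in OIR microglia, and 1402 and 1480 UMIs in rods, of which 3751 and 1811 were too shallow to be thinned. For 2 or more DNA synthesis UMIs the thinned microglia shares were 2.32% (1.38 to 3.64) and 8.97% (6.69 to 11.7). The rod shares by that rule were 4.84% and 4.10%, above that of control microglia. Rods held Dut at 122 and 110 CPM against 11.3 and 30.1 CPM in microglia, so their share by this rule is no level of stray RNA. Of the 535 OIR microglia, 14 passed both rules, 29 the mitosis rule alone and 34 the synthesis rule alone.

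**Figure D3:**
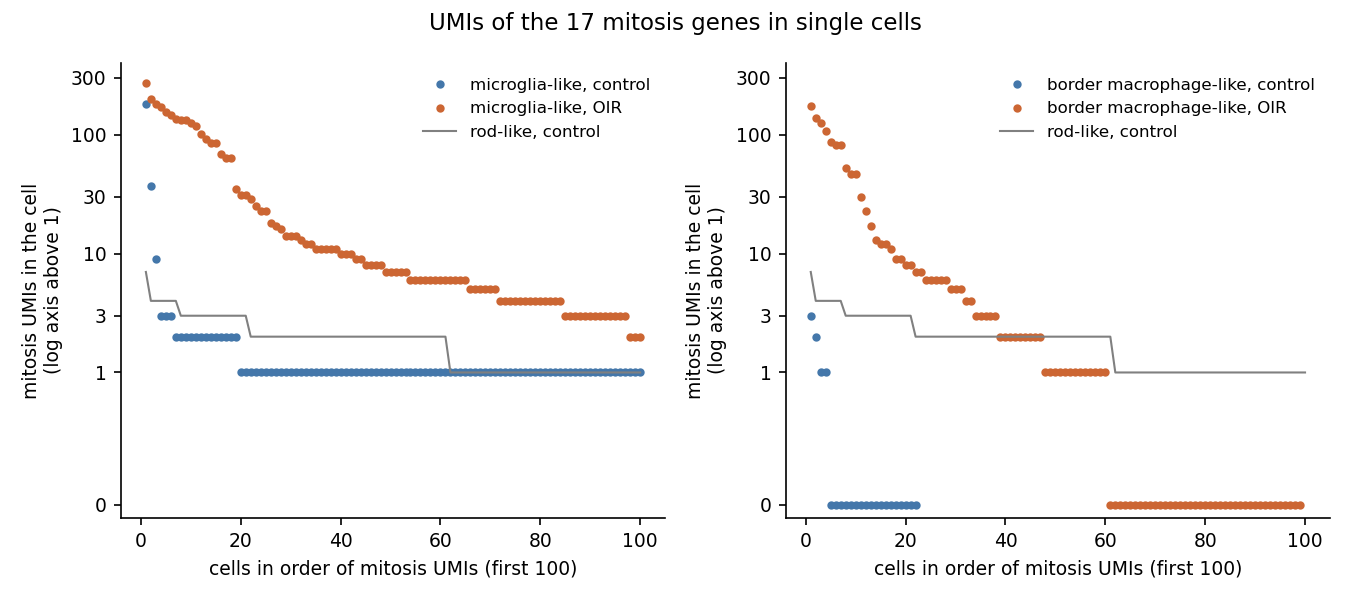
Mitosis UMIs in single cells (log axis above 1), for the 100 cells of each class and library with the most, in microglia (left) and border macrophages (right). Blue is control, orange OIR and the grey line control rods, whose highest cell held 7. In OIR 42 microglia and 17 border macrophages lie at 10 or more, against 2 and 0 in control.

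Counted without thinning, 42 OIR microglia held 10 or more mitosis UMIs and carried 2739 of the 3145 (87.1%), while 415 of 616 cells held none. No rod, cone, bipolar cell or Müller glial cell reached 10 in either library. Within the 42 cells the genes were not equally frequent. Birc5 was found in 40 of them, Cdk1 and Ube2c in 36, Top2a in 33 and Mki67 in 29. Ccnb1 was found in 24, Aurka and Cenpe in 22, and Hmmr and Plk1 in 20. Of the DNA synthesis genes Pcna was found in 33, Tyms in 28, Rrm1 and Tk1 in 27, Rrm2 in 21 and Mcm2 in 11. The mitosis genes took part in the choice of these cells, and the DNA synthesis genes did not. The median depth of the 42 cells was 19095 UMIs, with a range of 1132 to 53606 UMIs.

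To see which genes kept to these cells, each gene's OIR UMIs were split by whether the cell held 3 or more UMIs of other mitosis genes. For a gene outside the mitosis group 97 cells were such, which is 15.7% of OIR microglia and 29.5% of the UMIs of the class. For a mitosis gene, left out of its own rule, there were 85 to 97. Of the mitosis genes, Mki67 had 99.0% of its UMIs there (97.1 to 99.8), Cenpf 99.2%, Top2a 95.7% and Ube2c 93.0%. Cdk1 was the lowest at 75.5% (70.3 to 80.2), and the other 16 lay between 89.9% and 99.3%. The DNA synthesis genes were spread further. Rrm2 stood at 92.5% (84.4 to 97.2), Tk1 at 84.7% and Rrm1 at 78.6%, but Mcm2 at 43.8%, Ung at 44.9%, Dut at 49.2% and Pcna at 41.3% (37.2 to 45.5). In cells without that many mitosis UMIs, Pcna stood at 77.0 CPM and Mki67 at 0.697 CPM.

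**Figure D4:**
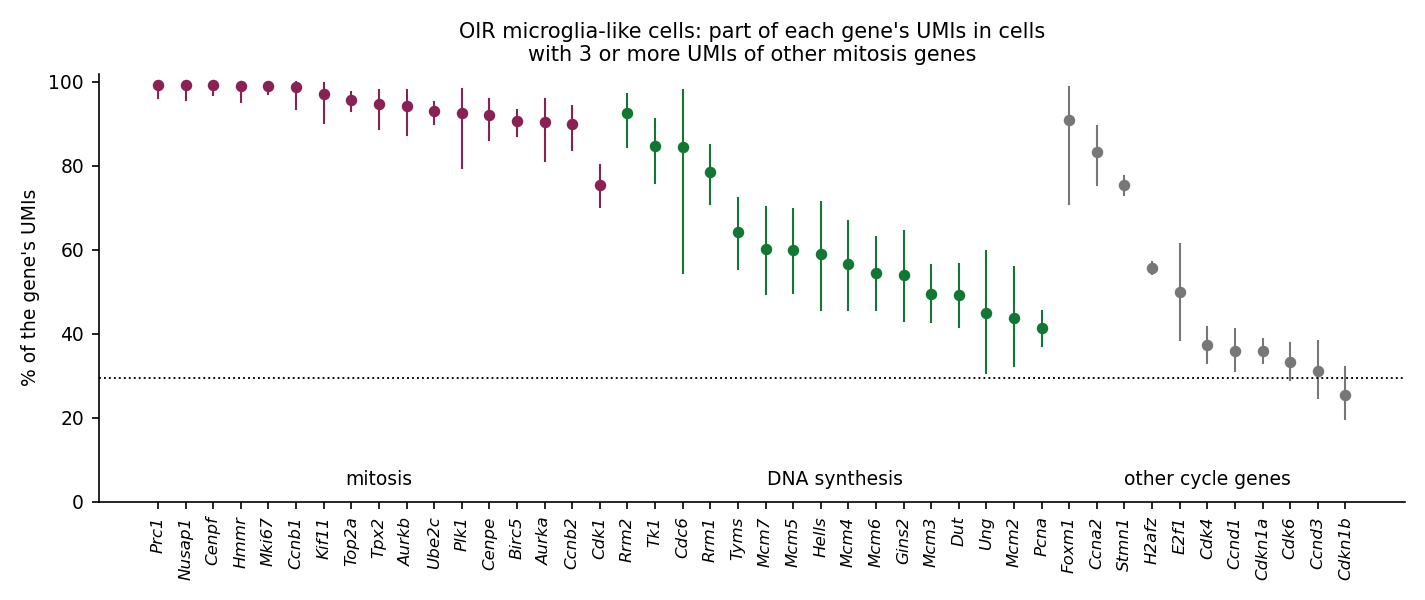
Part of each gene's UMIs in OIR microglia that lay in cells with 3 or more UMIs of other mitosis genes, in percent, with 95% binomial intervals. The dotted line is the part of all UMIs in such cells (29.5%, for the 97 cells). Mitosis genes lie near the top with Cdk1 lowest at 75.5%, DNA synthesis genes run from Rrm2 at 92.5% to Pcna at 41.3%, and Cdkn1b lies at 25.5%.

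What else the 97 cells held was measured with marker lists. Microglia markers summed to 11973 CPM in them and 13228 CPM in the other OIR microglia, and all 12 were detected in both. Border macrophage markers summed to 334 and 299 CPM (9 of 9 detected in both), monocyte markers to 16.8 and 6.80, and T cell markers to 0.559 and 1.40. The homeostatic marker P2ry12 stood at 436 and 570 CPM, Spp1 at 1566 and 1429 CPM and Mmp12 at 205 and 432 CPM. Rod markers were lower in the 97 cells, at 1826 against 3388 CPM, and their median depth was higher, at 15054 against 4951 UMIs. The part of depth and of rod RNA in these differences was not tested.

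Within microglia the cells with 10 or more mitosis UMIs, 2 in control and 42 in OIR, lay in 2 of the 4 clusters. Most control cells of the class lay in clusters led by Tmem119 (360 control, 52 OIR) and Icam1 (287 and 17). Most OIR cells lay in clusters led by Cst7 (160 and 279) and Mmp12 (28 and 268). In the Tmem119-led and Icam1-led clusters together the mitosis genes held 98 control and 10 OIR UMIs, or 16.4 and 20.7 CPM, a log2 ratio of 0.34 (-0.77 to 1.28). There the DNA synthesis genes stood at 144 and 172 CPM, a ratio of 0.25 (-0.09 to 0.58), and Mki67 had 0 UMIs in either library. None of 641 control and 66 OIR cells passed the thinned mitosis rule, which by the limit of 3 counts allows shares of up to 0.468% and 4.55%. In these clusters Pcna had 337 UMIs over 240 of 647 control cells. With 1 library per group, a cluster held mostly by 1 library may be that library and not a cell state.

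The Cst7-led cluster was shallow, with a median of 2038 UMIs, and its mitosis level differed between the libraries. It held 15 mitosis UMIs in control (44.4 CPM) and 334 in OIR (438 CPM), a log2 ratio of 3.30 (2.56 to 4.15). After thinning 0 of 108 control and 23 of 202 OIR cells (11.4%, 7.36 to 16.6) passed the mitosis rule. The count of 0, by the limit of 3 counts, allows up to 2.78%. In this cluster 52 control and 77 OIR cells were too shallow to be thinned. There Ube2c had 1 and 82 UMIs (5.18, 2.66 to 10.5) and Birc5 4 and 77 (3.09, 1.68 to 5.0). Mki67 had 0 and 5 UMIs.

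In the Mmp12-led cluster the summed mitosis level was high in both libraries. It was 695 CPM over the 28 control cells (231 UMIs) and 580 CPM over the 268 OIR cells (2801 UMIs), a log2 ratio of -0.26 (-0.45 to -0.06). The control cell with 181 mitosis UMIs lay in this cluster. Without it and the highest OIR cell the values were 159 and 528 CPM, and the ratio turned to 1.73 (1.33 to 2.17). The thinned mitosis rule was passed by 2 of 28 control cells (7.14%, 0.877 to 23.5), and in OIR by 20 of 267 (7.49%, 4.64 to 11.3). The DNA synthesis genes stood at 256 and 374 CPM, a ratio of 0.55 (0.23 to 0.88). Although no gene of the cycle lists was used to form the clusters, Top2a and Mki67 were among the 10 genes that led this one. Cycle genes outside the lists, such as Pbk and Pclaf, were not left out of the clustering by that rule.

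Border macrophages had the highest mitosis level of the named classes in OIR. The 22 control cells held 7 mitosis UMIs (48.6 CPM, 19.5 to 100.1) and the 99 OIR cells 1206 (1006 CPM, 950 to 1064), a log2 ratio of 4.37 (3.32 to 5.69). The DNA synthesis genes held 48 and 1086 UMIs, or 333 and 906 CPM (1.44, 1.03 to 1.89). Of the mitosis genes 15 had at least 20 UMIs and 10 of these were at least 2-fold higher, where 14.8% of all genes were. Of the DNA synthesis genes 15 had that many, and 8 were higher. None was 2-fold lower, where 11% of all genes were. Ube2c (0 and 187 UMIs), Birc5 (0 and 161), Top2a (0 and 140) and Mki67 (0 and 96) were absent from the control cells and so at least 2.90, 2.69, 2.49 and 1.94 higher on the log2 scale. Cdk1 had 1 and 139 UMIs (4.06, 1.56 to 9.38).

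Among DNA synthesis genes of border macrophages, Dut had 2 and 122 UMIs (2.87, 0.99 to 5.94), Mcm6 4 and 105 (1.66, 0.26 to 3.56) and Mcm3 5 and 117 (1.49, 0.23 to 3.14). Tyms had 1 and 85 UMIs, a ratio of 3.35 (0.83 to 8.67). Pcna, with 14 and 164 UMIs, stood at 0.49 (-0.30 to 1.40), an interval that held 0. After thinning 0 of 22 control cells and 12 of 86 OIR cells (14.0%, 7.42 to 23.1) passed the mitosis rule, and the count of 0, by the limit of 3 counts, allows up to 13.6%. Of the 1206 OIR UMIs 17 cells held 87.8%. The classes differed in makeup between the libraries. In the 21 control cells with fewer than 3 mitosis UMIs, border macrophage markers summed to 2547 CPM and microglia markers to 11416 CPM, against 12359 and 6037 CPM in the 61 such OIR cells. In the 38 OIR cells with 3 or more, border markers stood at 13023 and microglia markers at 5065 CPM. The part of this makeup in the ratios was not tested.

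Monocytes were few, and 1 cell held most of their mitosis UMIs. The 12 control cells held 1 mitosis UMI and the 33 OIR cells 68, of which 1 cell held 52 and 26 cells none. Of the 33 genes only Pcna reached 20 UMIs, with 3 and 20 (log2 ratio 1.28, -0.48 to 3.67). It was 2-fold higher, where 8.48% of all genes were and 6.51% were lower, but its interval held 0. The 3 OIR cells with 3 or more mitosis UMIs carried T cell markers at 706 CPM, with 7 of 7 detected, and monocyte markers at 390 CPM. The other 30 OIR monocytes carried 111 and 3892 CPM. The 3 cells thus held more T cell than monocyte marker RNA, and the part of such cells in the ratio was not tested.

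In Müller glia the intervals of both ratios held 0. The mitosis genes held 58 UMIs in control (17.9 CPM) and 32 in OIR (20.3 CPM), a log2 ratio of 0.19 (-0.48 to 0.83). The DNA synthesis genes held 621 and 302 UMIs, or 191 and 192 CPM, a ratio of 0.01 (-0.20 to 0.21). No mitosis gene had 20 UMIs. Of 6 DNA synthesis genes that had, 1 was 2-fold higher, Mcm7 with 16 and 16 UMIs (1.05, -0.05 to 2.14), where 3.11% of all genes were, and 0 were lower, where 5.06% were. Dut (307 and 171 UMIs, ratio 0.20), Pcna (149 and 62, -0.22), Rrm1 (40 and 14, -0.47), Tyms (36 and 10, -0.80) and Mcm4 (19 and 9, -0.03) had intervals that held 0. No cell of 253 and 76 passed the thinned mitosis rule, which allows up to 1.19% and 3.95%.

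The Gfap-led cluster came nearly all from OIR, and its control values rest on 9 cells. Its mitosis genes held 3 control and 104 OIR UMIs, or 8.71 and 17.3 CPM, and its DNA synthesis genes stood at 238 and 204 CPM. None of its 313 thinned OIR cells passed the mitosis rule, which allows up to 0.958%. Of 10 members with 20 UMIs, 1 was 2-fold higher (Tyms, 1 and 52 UMIs) and 1 lower (Mcm7, 4 and 34 UMIs), where 11% of all genes were higher and 9.11% lower. Dut had 42 and 592 UMIs (-0.31), Pcna 21 and 315 (-0.22) and Rrm1 3 and 77 (0.56). Gins2 had 2 and 36, Mcm4 3 and 34, Cenpe 2 and 23, Mcm6 2 and 20 and Ung 1 and 19. The intervals of all 10 held 0.

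**Figure D5:**
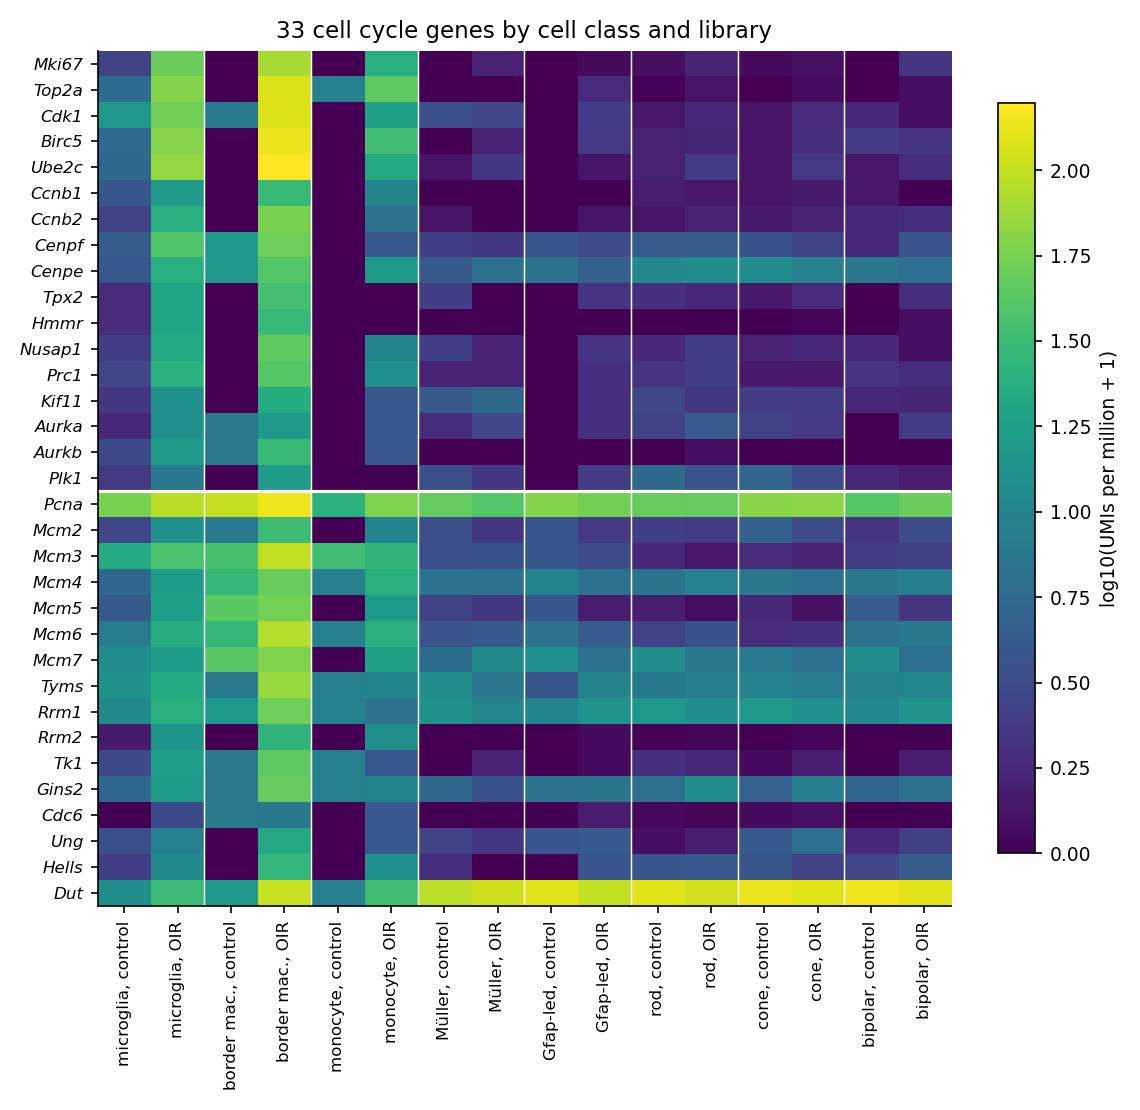
Level of each of the 33 genes, as log10 of CPM plus 1, in 8 cell classes and the 2 libraries, with mitosis genes above the white line and DNA synthesis genes below. Colours are to be read along a row. Mitosis genes are bright in OIR microglia and OIR border macrophages, and Dut and Pcna are bright in glia and neurons of both libraries.

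Neurons carried DNA synthesis transcripts at a level above that of control microglia, and 2 genes made up most of it. In control and OIR respectively, the 16 genes stood at 220 and 209 CPM in rods, 250 and 235 CPM in cones and 232 and 230 CPM in bipolar cells, beside 150 CPM in control microglia. Dut and Pcna together made up 76.5% and 74.3% of these UMIs in rods, 78.9% and 79.0% in cones and 76.7% and 74.8% in bipolar cells, against 44.8% and 35.1% in microglia. Without them the other 14 genes stood at 51.8 and 53.7 CPM in rods, and at 82.7 and 227 CPM in microglia. Dut alone stood at 122 and 110 CPM in rods, 135 and 122 in cones and 138 and 124 in bipolar cells, above the 11.3 and 30.1 CPM of microglia. In rods its 2128 and 1120 UMIs gave a ratio of -0.16 (-0.26 to -0.05), and Pcna's 809 and 470 a ratio of -0.01 (-0.18 to 0.15).

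The summed levels in neurons differed little between libraries. For mitosis genes the log2 ratio was 0.14 (-0.07 to 0.35) in rods, -0.12 (-0.41 to 0.18) in cones and 0.30 (-0.28 to 0.91) in bipolar cells. For DNA synthesis genes it was -0.07 (-0.15 to 0.00), -0.09 (-0.18 to 0.00) and -0.01 (-0.16 to 0.14). In rods 9 mitosis and 11 DNA synthesis genes had 20 UMIs. Of these 3 were 2-fold higher, where 5.58% of all genes were. They were Gins2 (95 and 113 UMIs, ratio 1.02, 0.61 to 1.43) and, on few UMIs, Ube2c (11 and 15) and Nusap1 (13 and 16). None of the rod genes so counted was 2-fold lower, where 0.828% of all genes were. Cenpe was the mitosis gene with the most rod UMIs (177 and 112, ratio 0.11), followed by Plk1 (82 and 28, -0.78, -1.45 to -0.14) and Cenpf (58 and 33, -0.04). Among the DNA synthesis genes with the most rod UMIs, Rrm1 had 239 and 113 (-0.31), Mcm7 190 and 67 (-0.73, -1.16 to -0.32), Tyms 118 and 78 (0.17) and Mcm4 107 and 86 (0.46).

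In cones 5 mitosis and 10 DNA synthesis genes had 20 UMIs and none was 2-fold apart, where 5.05% of all genes were higher and 0.974% lower. Gins2 came nearest, with 26 and 87 UMIs (0.96, 0.31 to 1.65). Dut had 893 and 1391 UMIs (-0.14, -0.27 to -0.02), Pcna 415 and 729 (0.03), Rrm1 94 and 135 (-0.26), Tyms 56 and 84 (-0.20), Mcm7 46 and 63 (-0.33) and Mcm4 44 and 61 (-0.31). Of the mitosis genes, Cenpe had 71 and 95 UMIs (-0.36) and Plk1 27 and 26 (-0.84, -1.67 to -0.01). Ung, with 21 and 59, stood at 0.71 (-0.03 to 1.5). In bipolar cells 1 mitosis and 8 DNA synthesis genes had 20 UMIs. Of these 0 were 2-fold higher, where 3.1% of all genes were, and 1 was lower, Mcm7 with 29 and 23 UMIs (-1.03, -1.89 to -0.19), where 2.47% were. The other intervals in bipolar cells held 0, among them those of Dut (367 and 536 UMIs, -0.15), Pcna (107 and 208, 0.26), Rrm1 (25 and 56, 0.47), Tyms (23 and 40, 0.10) and Gins2 (11 and 24, 0.43). Mcm4 (18 and 33, 0.18), Mcm6 (15 and 29, 0.26) and Cenpe (17 and 23, -0.26) did likewise.

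The wider set of cycle genes was read in microglia against the same background, 8.32% of all genes 2-fold higher and 6.16% lower. Of 21 spindle motor and cytokinesis genes, 20 were at least 2-fold higher in OIR (median log2 ratio 2.36), among them Kif23 (7 and 99 UMIs, log2 ratio 3.95), Cdca3 (14 and 196, 3.93) and Cdca8 (14 and 179, 3.80). Of 14 kinetochore and checkpoint genes with 20 UMIs, 12 were higher (median 2.61), with Bub1, a checkpoint kinase, at 1 and 40 UMIs (5.45, 2.89 to 10.8). Cenph had 2 and 51 UMIs (4.80) and Ndc80 3 and 42 (3.93). Of 15 condensin and chromatin genes 11 were higher (median 1.24). The condensin subunit Ncapg had 0 and 30 UMIs, at least 3.45 higher, and Ncapg2 had 23 and 103 (2.29). Stmn1, which destabilises microtubules, had 272 and 1342 UMIs (2.43, 2.24 to 2.62), and the histone variant gene H2afz had 2652 and 4418 (0.86, 0.79 to 0.93). No gene of these lists was 2-fold lower.

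Of 21 origin and fork genes outside the 16 with 20 UMIs, 9 were higher (median 0.86, where 8.32% of all genes were higher), led by Mcm10 (1 and 26 UMIs, 4.83), Pole (4 and 22, 2.59) and Gmnn (56 and 188, 1.87). Of 15 genes of nucleotide supply, DNA methylation and chromatin assembly, 8 were higher (median 1.01), led by Brca1 (2 and 26, 3.83), Chaf1b (3 and 38, 3.79) and Uhrf1 (4 and 50, 3.77). Of 12 genes of the E2F, Rb and DREAM group with 20 UMIs, 4 were higher, but their median log2 ratio was 0.085, beside -0.09 for all genes. These included the activator E2f1 (12 and 80, 2.86, 1.98 to 3.88), the repressor E2f8 (3 and 28, 3.35) and the mitotic activator Foxm1 (4 and 22, 2.59). None of these 3 lists had a gene 2-fold lower.

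Among the D, E and A cyclins and their kinases, the E and A cyclins were over 2-fold higher, and Ccnd1, Ccnd3, Cdk4 and Cdk6 were under 2-fold apart. The list of these cyclins, their kinases and Cdc25a had 9 genes with 20 UMIs (median log2 ratio 0.36). Of these 3 were higher, where 8.32% of all genes were: Ccna2 (19 and 120, 2.79, 2.08 to 3.57), Ccne1 (0 and 26, at least 3.24) and Ccne2 (9 and 22, 1.42). Ccnd1, the D-type cyclin, had 319 and 375 UMIs, or 48.1 and 61.7 CPM, and a ratio of 0.36 (0.14 to 0.58). Ccnd3 had 217 and 186 (-0.09, -0.39 to 0.19), Ccnd2 3 and 8, Cdk4 385 and 526 (0.58, 0.39 to 0.77) and Cdk6 414 and 448 (0.24, 0.05 to 0.44). Unlike the mitosis genes, these were spread over the class. Of the OIR UMIs of Ccnd1 36.0% lay in cells with 3 or more mitosis UMIs, of Cdk4 37.3% and of Cdk6 33.3%, beside 29.5% of all UMIs.

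Genes that hold the cycle back were higher and lower within the same class. Of 7 inhibitors of cyclin-dependent kinases with 20 UMIs, 4 were higher and 1 lower, where 8.32% and 6.16% of all genes were, and their median was 1.18. Cdkn1a, which encodes p21, had 268 UMIs in control and 1125 in OIR, or 40.4 and 185 CPM, a ratio of 2.20 (2.0 to 2.39). Its level was 225 CPM in the OIR cells with 3 or more mitosis UMIs and 168 CPM in the others. Cdkn3 had 16 and 93 UMIs (2.67), Cdkn2a 7 and 22 (1.78) and Cdkn1b, which encodes p27, 296 and 204 (-0.41, -0.67 to -0.15). The lower gene, named after its value was seen, was Cdkn1c with 125 and 44 (-1.38, -1.91 to -0.87). In border macrophages Cdkn1a had 0 and 126 UMIs, at least 2.33 higher. Of 13 antiproliferative and p53 target genes 3 were higher and 3 lower, where 8.32% and 6.16% of all genes were, and their median log2 ratio was -0.0053. Plk2 had 18 and 170 UMIs (3.37) and Phlda3 3 and 19 (2.79), while Btg2, a brake on division, had 16318 and 4304 (-1.80, -1.84 to -1.75).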

How the data were processed

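Droplet libraries (10x) of CD11b-selected retinal cells were measured, 1 per group. The deposited files hold raw UMI counts per gene and barcode, made by the authors with Cell Ranger 3.0.2 on mm10, per the submitters' processing notes. How cells were called and which annotation release was used is not given in the sources at hand. Kept were barcodes with 500 or more genes whose mitochondrial UMIs did not exceed 10% (9454 control, 6516 OIR). Scrublet's automatic threshold called 1 and 0 doublets, so the 938 and 424 barcodes of highest score were removed instead (8.66% and 5.82%). Of these, 4 and 10 that had passed the filter held 3 or more mitosis UMIs. Cells were clustered with scanpy 1.11.5 and leidenalg 0.10.2 (2000 variable genes, 30 components, 20 neighbours, resolution 1) without any gene of the cycle lists. Clusters not named rod were clustered again together, a step chosen with the data at hand. Clusters were named from marker lists.

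Counts were summed per class and library and divided by the UMIs of the class (CPM). Intervals are exact at the 95% level (Poisson, conditional binomial, Clopper-Pearson) and cover counting error only. A count of 0 was set to a floor of 3 counts over the class, and a share of 0 cells is given with the limit of 3 cells of the total, which lies under the upper Clopper-Pearson bound. A gene was called when it had at least 20 UMIs in both libraries together and differed at least 2-fold. Shares of cells used 1 draw of 1500 UMIs per cell. The ratio script was tested on simulated data. The text names every member in microglia, up to the 10 members of most UMIs in each other class, the 3 genes of largest ratio in each further cycle list and 12 regulators. The members and lists were chosen with earlier results of these data known. Alternatives covered scaling, filters, doublets, clustering, depth and left-out clusters or cells. With 1 library per group no test was made.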

Additional observations from a re-analysis of the deposited data

Results flagged for a closer look

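Of the small classes and clusters outside those compared above, 3 held mitosis transcripts in OIR at levels over those of the control library. Neutrophils (11 control and 20 OIR cells) held 0 and 64 mitosis UMIs, or 0 and 206 CPM. In OIR 57 of the 64 lay in 2 cells. The 4 OIR neutrophils with 3 or more mitosis UMIs carried neutrophil markers at 4832 CPM and microglia markers at 11816 CPM, against 39566 and 8847 CPM in the others. An unnamed cluster led by Cldn5 with endothelial and pericyte markers (48 and 15 cells) held 17 and 126 mitosis UMIs, or 24.1 and 314 CPM, and 2 OIR cells held 120 of them. An unnamed cluster led by Crhbp (5 and 18 cells) held 2 and 67, or 29.2 and 199.8 CPM, and 1 OIR cell held 53 of them. The other small classes held few mitosis UMIs: erythroid cells 7 and 11 (160 and 53.7 CPM), horizontal cells 4 and 4 (18.2 and 11.4 CPM) and pigment epithelium 2 and 6 (21.0 and 35.5 CPM), with intervals of the ratio that held 0. The part of doublets in these cells was not tested.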

How the results depend on the processing

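No paired analysis was possible because each group is 1 library. The summed mitosis ratio of microglia, 3.32, was 4.19 with cycle genes kept in clustering, 4.06 at resolution 0.5, 3.95 without the Mmp12-led cluster, 0.34 without it and the Cst7-led cluster, and 4.27 without the highest cell of each library. The DNA synthesis ratio, 1.22, was 1.1 with doublets kept, 1.47 with cycle genes kept, 0.86 at resolution 0.5, 1.33 with median-of-ratios scaling, 0.83 without the Mmp12-led cluster and 0.25 without both. Leaving out both clusters leaves 69 OIR cells. At resolution 0.5 border macrophages gave 2.76 for mitosis and 3.39 for DNA synthesis, the latter 1.95 with doublets kept, and at resolution 2 monocytes gave 2.30 for DNA synthesis. With doublets kept no monocyte class formed. A stricter cell filter gave Müller glia -1.24 and 0.23 and bipolar cells -0.59 for mitosis. Median-of-ratios scaling gave rods -0.16 for DNA synthesis. It shifted all genes by -0.11 in microglia. Some single genes changed direction: without both clusters Pcna stood at -0.60, Tyms at -0.24 and Rrm1 at most at -0.54, without the Mmp12-led cluster Mcm3 stood at -0.050 and Mcm7 at -0.047, and at resolution 0.5 Mcm3 stood at -0.061. In microglia 17 genes could be set without both clusters, of which 14 were higher and 3 lower. The control share of thinned microglia with 3 or more mitosis UMIs was 0 at resolution 0.5 and 0 without the Mmp12-led cluster. The OIR share, 8.04%, was 5.51% when thinned to 1000 UMIs, 5.05% at 5 or more UMIs, 15.7% without thinning and 11.1% with cycle genes kept. The cause of these shifts was not tested.

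Counts of all genes called depend on the minimum. At least 5 and at least 100 UMIs gave 1659 and 405 genes higher in microglia, 857 and 31 in monocytes, 841 and 83 in Müller glia, 1531 and 209 in rods, 1257 and 187 in cones and 868 and 109 in bipolar cells. Genes lower numbered 2502 and 130 in border macrophages, 1023 and 27 in monocytes, 952 and 156 in Müller glia, 359 and 26 in rods, 391 and 19 in cones and 753 and 53 in bipolar cells. At least 100 UMIs gave 420 lower in microglia and 267 higher in border macrophages. The 22 control border macrophages and 12 control monocytes limit every ratio of those classes.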

Other observations

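Spc25, a kinetochore gene, was lower in the Müller glia of the OIR library. It held 3201 UMIs in control Müller glia and 580 in OIR, or 986 and 369 CPM, a log2 ratio of -1.42 (-1.55 to -1.29), while the 17 mitosis genes together held 58 and 32 UMIs there (0.19, -0.48 to 0.83). The Müller clusters differed in it: it stood at 1605 and 973 CPM in the Aqp4-led cluster and at 460 and 280 CPM in the Pdyn-led cluster, so the ratio was -0.72 in each. In the Gfap-led cluster it stood at 380 and 279 CPM. Rods held 6.48 and 6.85 CPM, cones 27.9 and 30.7, and microglia 4.37 and 16.5. Spc25 was singled out after its values were seen.

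Ccna2, the cyclin of DNA synthesis and of mitotic entry, was detected in rods with 205 and 151 UMIs, or 11.8 and 14.8 CPM, while Mki67 was near absent from neurons at 5 and 16 UMIs over rods, cones and bipolar cells together.

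Outside the fixed lists, genes ranked by their ratio between the 97 OIR microglia with 3 or more mitosis UMIs and the others included Hist1h1b (76 and 2 UMIs, log2 ratio 6.51), Pbk (113 and 5, 5.76), Pclaf (212 and 15, 5.08) and Hist1h2ap (325 and 41, 4.25). The same ranking held genes of antigen presentation, H2-Aa (148 and 23 UMIs, 3.95) and H2-Eb1 (131 and 38, 3.05). Cd74 stood at 359 CPM in the 97 cells and 174 CPM in the others. These cells were chosen by their mitosis UMIs and are deeper, so the ratios are descriptions of these cells.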
